A study of Mus musculus with 92 samples.

Results

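Small nucleolar ribonucleoproteins are the RNA-guided machines that modify ribosomal RNA, and 10 genes that encode their protein subunits and assembly factors are described here across all RNA-seq and SLAM-seq groups of the study, out of 56953 genes in the deposited tables. The members were listed by name. They are 2 assembly factors of box H/ACA particles (Shq1 and Naf1), the 4 box H/ACA core proteins (Dkc1, Nhp2, Nop10 and Gar1) and the 4 box C/D core proteins (Fbl, Nop56, Nop58 and Snu13). The cells were C57BL/6 mouse embryonic stem cells whose alleles of Gabpa, of Gabpb1, or of Gabpb1 and Gabpb2 encode a protein fused to the dTAG degron (labelled dTAG/dTAG). The small molecule dTAG-13 links that degron to an E3 ligase, which sends the fusion protein to the proteasome. GABPA is the ETS-family subunit of the GABP transcription factor that binds DNA, and GABPB1 and GABPB2 are its partner subunits. RNA-seq compared cells given 500 nM dTAG-13 for 12 h with cells given DMSO in each of the 3 lines (6 groups, 12 libraries). SLAM-seq compared 1, 2, 4 and 12 h of dTAG-13 with DMSO in the GABPA line (7 groups, 14 libraries). In SLAM-seq, newly made RNA takes up 4-thiouridine (500 µM) and its reads carry T-to-C conversions. A single DMSO group, which carries the 2 h label, was the control for 2 h and for 4 h of dTAG-13. All cells, DMSO controls included, were homozygous for a degron allele and grew in serum with LIF and the inhibitors PD0325901 and CHIR99021. Every group had 2 libraries, which the submitters describe as biological duplicates, and the number of clones behind each line was not stated in these sources.

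Box H/ACA particles carry guide RNAs that direct dyskerin, the pseudouridine synthase encoded by Dkc1, to chosen uridines, and NHP2, NOP10 and GAR1 complete the particle. SHQ1 is a chaperone that holds newly made dyskerin, NAF1 takes the place of GAR1 while the particle is assembled, and the same core proteins bind telomerase RNA and the small RNAs of Cajal bodies. Box C/D particles direct the 2′-O-methyltransferase fibrillarin, encoded by Fbl, through guide RNAs held by NOP56, NOP58 and SNU13, and SNU13 also binds the U4 RNA of the spliceosome. Cells that divide fast, such as embryonic stem cells, make many ribosomes and express these genes at high levels.

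GABPA belongs to the ETS family, whose members recognise a GGAA core, so the promoters of the members were searched for the 8 bases CCGGAAGT and for the 6 bases CGGAAG inside it, on both strands. Promoter windows of 300 bases (250 before and 50 after the annotated gene start) came from RefSeq on GRCm38.p6, and 8 of the 10 members had one, all but Naf1 and Fbl. The last 120 bases of 6 windows are printed because they contrast the 3 members with the 8-base match (Shq1, Gar1 and Nhp2), Snu13, which has 2 shorter matches, and the core genes Dkc1 and Nop56, which have none. Each runs 5′ to 3′ on the strand of its gene and holds 70 bases before the start and 50 from it. Matches are in capitals. A match on the other strand reads ACTTCCGG or CTTCCG.
Shq1 (chr6:100671108-100671227, minus strand): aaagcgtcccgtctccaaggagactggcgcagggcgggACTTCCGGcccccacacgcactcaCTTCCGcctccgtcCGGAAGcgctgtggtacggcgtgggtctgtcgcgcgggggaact
Gar1 (chr3:129831347-129831466, minus strand): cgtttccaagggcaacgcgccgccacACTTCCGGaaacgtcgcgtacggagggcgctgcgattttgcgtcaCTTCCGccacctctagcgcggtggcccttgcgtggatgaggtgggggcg
Nhp2 (chr11:51619703-51619822, plus strand): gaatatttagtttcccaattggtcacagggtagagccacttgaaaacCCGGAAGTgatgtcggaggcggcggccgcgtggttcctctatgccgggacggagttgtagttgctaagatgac
Snu13 (chr15:82047549-82047668, minus strand): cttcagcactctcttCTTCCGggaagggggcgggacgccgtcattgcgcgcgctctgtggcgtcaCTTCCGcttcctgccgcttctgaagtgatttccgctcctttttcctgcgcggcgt
Dkc1 (chrX:75095784-75095903, plus strand): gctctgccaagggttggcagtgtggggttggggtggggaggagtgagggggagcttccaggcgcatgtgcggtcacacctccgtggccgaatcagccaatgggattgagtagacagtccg
Nop56 (chr2:130274342-130274461, plus strand): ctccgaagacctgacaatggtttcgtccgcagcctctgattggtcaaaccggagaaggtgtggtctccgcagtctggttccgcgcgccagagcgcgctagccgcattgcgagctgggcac
Shq1 held the 8-base match at bases -32 to -25, counted with the gene start as 0, and 2 further 6-base matches at -8 and at 6. Gar1 held the 8-base match at -44 to -37 and 6-base matches at -90 (outside the printed stretch) and at 1. Nhp2 held it at -23 to -16. In Snu13 the 6-base matches began at -55 and at -5, and Nop10 held a single 6-base match at -5. Nop58, like Dkc1 and Nop56, held neither. For comparison, 3.89% of the 32851 promoter windows in the RefSeq table held the 8-base sequence and 16.9% held the 6-base sequence. Among the 8 member windows, 5 held the shorter, and 3 of these 5 held the longer, which contains it. The RefSeq windows were not limited to expressed genes, and other sequences with a GGAA core were not counted.

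**Figure D1:**
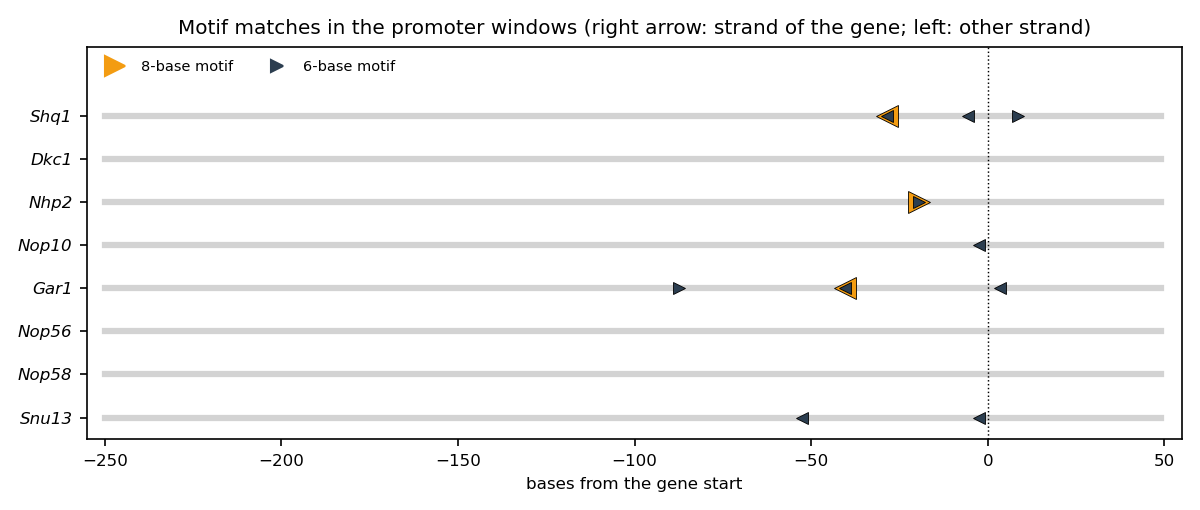
Matches to CCGGAAGT and to CGGAAG in the 300-base promoter windows of the 8 members that have one, one line per gene, with distance from the annotated gene start in bases on the horizontal axis. Matches of Shq1, Nhp2, Gar1, Nop10 and Snu13 lie within 90 bases of the start, and the lines of Dkc1, Nop56 and Nop58 are empty.

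RNA-seq totals ran between 16.0 and 32.1 M counts (M, mega). In SLAM-seq the totals ran between 11.5 and 30.7 M for all reads and between 0.937 and 4.25 M for converted reads. All 10 embryonic stem cell markers of a list (Pou5f1, Nanog and Sox2 among them) were detected, with summed levels of 6390 to 8462 CPM (counts scaled to a common library total) in RNA-seq, while 8 fibroblast markers summed to 6.26 to 14.2 CPM and 10 markers of differentiated lineages to 5.56 to 29.1 CPM. The degron acts on protein, so transcript levels do not check the depletion. Gabpa transcripts stood at 31.5 and 32.1 TPM (counts scaled by transcript length and then to a common total) after 12 h of dTAG-13 in the GABPA line, against 20.1 and 20.5 TPM in DMSO. Fold changes below are log2 values, dTAG-13 over DMSO, with the standard error implied by edgeR's quasi-likelihood test, and a gene is called where the Benjamini-Hochberg adjusted p over all genes tested is under 0.05. The spread is estimated over all groups of an assay. Levels from bulk samples cannot tell fewer cells of a type from less RNA per cell.

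The first comparison asked how the transcripts of the snoRNP genes stood 12 h after dTAG-13 was given to the GABPA line. Both H/ACA assembly factors, 2 of the 4 H/ACA core genes (Gar1 and Nop10) and 2 of the 4 C/D core genes (Snu13 and Nop56) fell, and none rose. Across the 16396 genes tested, 21.9% fell and 24.6% rose, and the median log2 change was 0.06, against -0.24 over the 10 members. The falls spanned a wide range, with Shq1 and Snu13 far below the rest.

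Shq1, the dyskerin chaperone gene (mm39 chr6:100545217-100648118, minus strand), stood at 2.27 and 1.65 TPM in dTAG-13 libraries, against 46.2 and 45.1 TPM in DMSO libraries of the GABPA line. Both treated libraries lay far below both controls. The log2 change was -4.43 ± 0.13 (adjusted p = 1.6e-13, edgeR's quasi-likelihood test, n = 2 each), a transcript level 21.6-fold lower. Naf1, the factor that precedes GAR1 in the particle, was at 26.7 and 27.1 TPM after dTAG-13, against 41.8 and 37.7 TPM in DMSO. The groups did not overlap, and the fall was -0.54 ± 0.07 on the log2 scale (adjusted p = 9.1e-06). In DMSO Shq1 lay above Naf1 in this line, and after dTAG-13 it was the lowest of the 10 members.

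Among the H/ACA core genes Gar1, whose product joins last, changed most. It stood at 68.1 and 62.5 TPM after dTAG-13 in the GABPA line, against 125 and 125 TPM in DMSO, a log2 change of -0.91 ± 0.09 (adjusted p = 5.1e-07). The groups were well apart. Nop10, the smallest core protein gene, was at 178 and 180 TPM after dTAG-13, against 219 and 209 TPM in DMSO, and its fall of -0.23 ± 0.07 (adjusted p = 0.011) lost its call without DMSO replicate 1 or dTAG-13 replicate 1 (adjusted p of 0.050 and 0.080). Nhp2, which contacts the guide RNA, was at 501 and 495 TPM after dTAG-13 and 561 and 553 TPM in DMSO. Its libraries did not overlap either, but the change of -0.14 ± 0.07 did not pass (adjusted p = 0.11), although a fit of these 4 libraries alone called it (-0.18, adjusted p = 0.041). Dkc1, the catalytic subunit gene, stood at 149 and 171 TPM after dTAG-13 and at 162 and 151 TPM in DMSO, so its libraries overlapped, and its change was 0.05 ± 0.07 (adjusted p = 0.56).

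Among the C/D core genes Snu13 (mm39 chr15:81924726-81931799, minus strand) changed most. It stood at 61.3 and 66.4 TPM after dTAG-13 in the GABPA line, against 178 and 178 TPM in DMSO. This was a log2 change of -1.46 ± 0.07 (adjusted p = 1.7e-11), or 2.74-fold lower, with no overlap between groups. Nop56, one of the paired scaffold proteins of the particle, was at 308 and 313 TPM after dTAG-13, against 378 and 359 TPM in DMSO, a smaller fall of -0.24 ± 0.06 (adjusted p = 0.0019). Nop58, the other scaffold gene, was at 214 and 233 TPM after dTAG-13 and at 242 and 215 TPM in DMSO. Those ranges overlapped and the change was -0.02 ± 0.07 (adjusted p = 0.83). Fbl, the methyltransferase gene and the most abundant member per length in this line, stood at 703 and 699 TPM after dTAG-13. In DMSO Fbl stood at 675 and 680 TPM, and its change of 0.07 ± 0.07 did not pass (adjusted p = 0.45). Neither enzyme gene, Dkc1 or Fbl, was therefore called in this comparison, and DESeq2 called the same 6 members as edgeR.

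**Figure D2:**
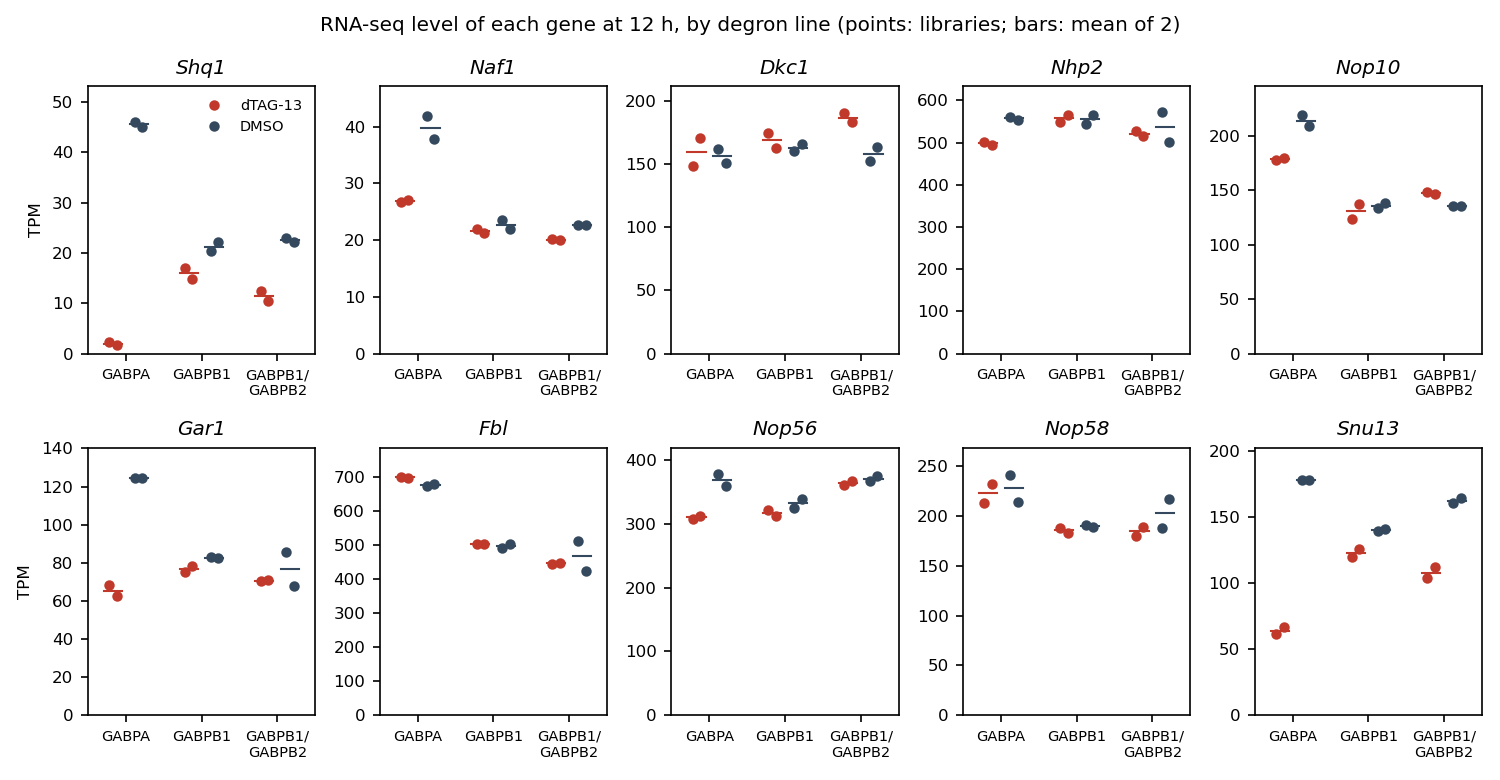
Level of each member in TPM (vertical axis, from 0, scaled per gene) in every RNA-seq library of the 3 lines at 12 h, dTAG-13 libraries left of DMSO libraries, with a bar at the mean of each group of 2. Shq1 in the GABPA line stands apart, at 2.27 and 1.65 TPM after dTAG-13 against 46.2 and 45.1 TPM in DMSO, and Snu13 and Gar1 separate next.

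In order of level per length, the GABPA line ran Fbl, Nhp2, Nop56, Nop58, Nop10, Dkc1, Gar1, Snu13, Naf1 and Shq1 after dTAG-13, with group means of 701, 498, 311, 223, 179, 160, 65.3, 63.8, 26.9 and 1.96 TPM. The neighbours Gar1 and Snu13 overlapped in that order, as libraries of the other neighbouring pairs did not. In DMSO the order was Fbl, Nhp2, Nop56, Nop58, Nop10, Snu13, Dkc1, Gar1, Shq1 and Naf1, at 677, 557, 369, 228, 214, 178, 157, 125, 45.7 and 39.8 TPM, and Nop58 and Nop10 were the neighbours that overlapped. Snu13 thus stood above Dkc1 and Gar1 in DMSO and level with Gar1 after dTAG-13. The 10 members together made up 2210 and 2247 TPM after dTAG-13, against 2627 and 2553 TPM in DMSO.

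The same comparison in the GABPB1 line gave smaller changes. In that line 5.46% of all genes fell and 1.28% rose, and 2 members, Shq1 and Snu13, fell. Shq1 stood at 17.1 and 14.8 TPM after dTAG-13, against 20.4 and 22.2 TPM in DMSO. The groups did not overlap, and the log2 change was -0.45 ± 0.09 (adjusted p = 0.0064), a call lost without either DMSO library or without dTAG-13 replicate 2 (adjusted p of 0.051 to 0.16). Snu13 was at 120 and 125 TPM after dTAG-13, against 140 and 141 TPM in DMSO. Its change of -0.23 ± 0.06 (adjusted p = 0.039) lost its call without any 1 of the 4 libraries, with DESeq2 size factors and with total counts (adjusted p of 0.056 to 0.44). The other 8 members were not called, with log2 changes of -0.14 for Gar1 and 0.01 for Dkc1 at the ends of their range, and the median over the 10 members was -0.10 beside -0.00 over all genes.

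**Figure D3:**
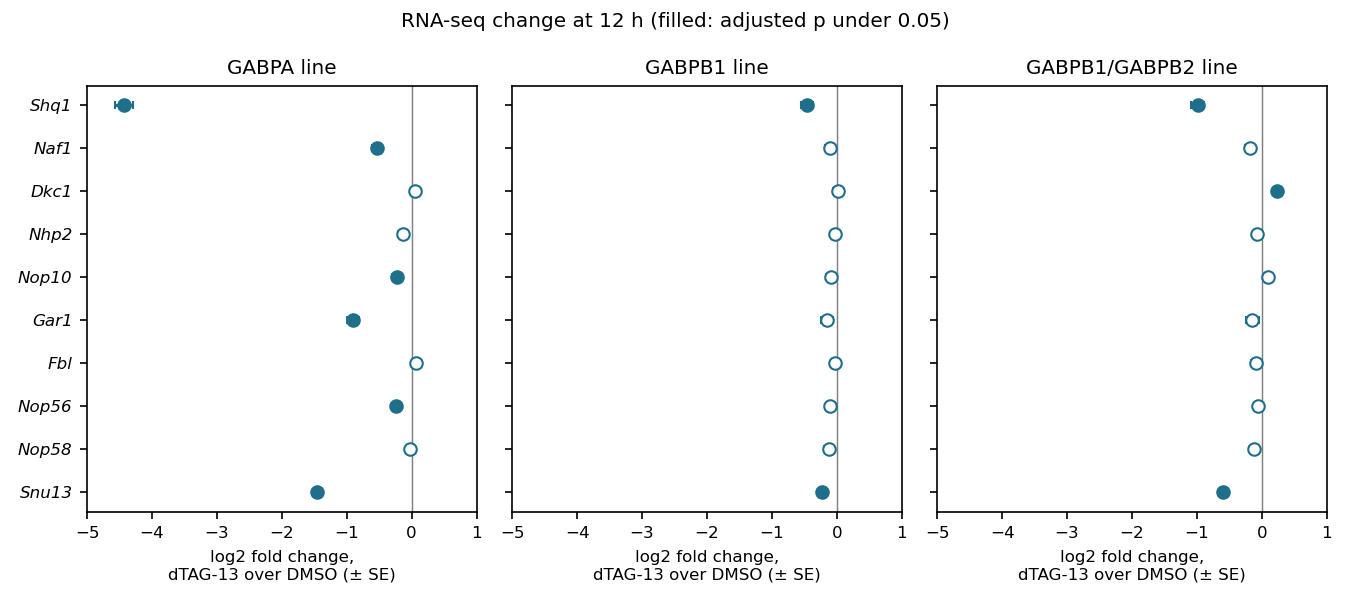
Log2 change (dTAG-13 over DMSO, with standard error bars) of the 10 members in RNA-seq at 12 h for the GABPA, GABPB1 and GABPB1/GABPB2 lines, with filled symbols for changes that passed an adjusted p under 0.05. Shq1 reads -4.43, -0.45 and -0.99, and Snu13 reads -1.46, -0.23 and -0.60 in that order of lines, while the other members lie closer to 0.

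In the GABPB1/GABPB2 line, 9.26% of all genes fell and 3.53% rose at 12 h. Shq1 and Snu13 again fell, and Dkc1 rose. Shq1 stood at 12.4 and 10.5 TPM after dTAG-13, against 23.1 and 22.2 TPM in DMSO, a log2 change of -0.99 ± 0.10 (adjusted p = 4.2e-06) with all treated libraries below all controls. Snu13 was at 104 and 112 TPM after dTAG-13, against 160 and 164 TPM in DMSO, and its change was -0.60 ± 0.07 (adjusted p = 6.1e-06). Dkc1 was at 191 and 184 TPM after dTAG-13 and 153 and 164 TPM in DMSO. Its rise of 0.24 ± 0.07 (adjusted p = 0.032) was called with all RNA-seq libraries in the fit, and not in a fit of these 4 libraries alone or without DMSO replicate 1 or either dTAG-13 library (adjusted p of 0.074 to 0.17). The 2 DMSO libraries of this line differed for several members: Fbl was at 514 and 424 TPM, Gar1 at 85.8 and 67.9 TPM and Nhp2 at 573 and 502 TPM, and both dTAG-13 libraries lay between them for each of these genes. Without DMSO replicate 2, Nhp2, Gar1 and Fbl were also called lower, which brought the number that fell to 5.

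The lines were then compared through the difference between their responses. Against the GABPB1/GABPB2 line, where the difference was negative and called for 10.7% of all genes, 5 members fell further in the GABPA line. The difference in log2 change was -3.44 ± 0.18 for Shq1 (adjusted p = 3.6e-09), -0.86 ± 0.09 for Snu13 (adjusted p = 4.1e-06) and -0.76 ± 0.14 for Gar1 (adjusted p = 0.00057). It was -0.36 ± 0.10 for Naf1 (adjusted p = 0.02) and -0.33 ± 0.10 for Nop10 (adjusted p = 0.024), and both of these calls were lost without DMSO replicate 1 or dTAG-13 replicate 1 of the GABPA line (adjusted p of 0.057 to 0.10 for Naf1 and 0.062 to 0.094 for Nop10). Against the GABPB1 line, where 13.3% of all genes had a negative called difference, Shq1 (-3.98 ± 0.17, adjusted p = 6.4e-11), Snu13 (-1.23 ± 0.09, adjusted p = 3.3e-08), Gar1 (-0.76 ± 0.13, adjusted p = 0.00032) and Naf1 (-0.43 ± 0.10, adjusted p = 0.0041) fell further in the GABPA line. The responses of the GABPB1/GABPB2 line and the GABPB1 line differed by -0.53 ± 0.14 for Shq1 (adjusted p = 0.11) and -0.37 ± 0.09 for Snu13 (adjusted p = 0.078). With edgeR's quasi-likelihood test 0 members were called there, beside 0.927% of all genes that were lower and 0.0854% that were higher. At an unadjusted p under 0.05 there were 3 (Shq1 and Snu13 lower, Dkc1 higher), and DESeq2 called 1, Snu13.

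The lines also differed in DMSO. Gabpa averaged 20.3 TPM in DMSO cells of the GABPA line and 58.1 TPM in those of the GABPB1 line. Its log2 difference was -1.58 ± 0.07 (adjusted p = 3.5e-11, edgeR's quasi-likelihood test). Gabpb1 was higher in the GABPA line in counts (0.53 ± 0.10), and Gabpb2 was not called. The part of these subunit levels in the responses was not tested. In edgeR's fit of counts, all 10 members were higher in DMSO cells of the GABPA line than in DMSO cells of the GABPB1 line. The median log2 difference was 0.68, while 31.5% of all genes were higher and the median over all genes was 0.01. On the TPM scale this did not hold for Dkc1 and Nhp2, whose libraries overlapped between these lines. Dkc1 averaged 157 TPM in the GABPA line and 163 TPM in the GABPB1 line, and Nhp2 averaged 557 and 555 TPM. Shq1 differed by 1.16 ± 0.09, with 46.2 and 45.1 TPM in the GABPA line, against 20.4 and 22.2 TPM in the GABPB1 line. Naf1 differed by 1.07 ± 0.07, Nop10 by 0.96 ± 0.07, Gar1 by 0.88 ± 0.09 and Fbl by 0.74 ± 0.08. Snu13 (0.61), Nop58 (0.40), Nop56 (0.38), Nhp2 (0.32) and Dkc1 (0.20 ± 0.07, adjusted p = 0.02) were closer. Dkc1 lost its call with total counts, under a stricter filter (average log2 CPM of 3 or more), and without 3 of the 4 libraries (adjusted p of 0.056 to 0.21). Cell line and any batch in which its libraries were made cannot be told apart in this comparison. After dTAG-13, Shq1 in the GABPA line stood below its DMSO level in every line, and Naf1 (26.7 and 27.1 TPM) still stood above the DMSO libraries of the GABPB1 line (23.5 and 21.9 TPM). Between DMSO cells of the GABPB1/GABPB2 line and of the GABPB1 line, edgeR's quasi-likelihood test called 0 members, beside 15% of all genes higher and 15% lower. An unadjusted p under 0.05 was reached by 2, Nop56 and Snu13, both higher in the GABPB1/GABPB2 line, and DESeq2 called 0. Gabpb2 was lower in DMSO cells of the GABPB1/GABPB2 line (-0.95 ± 0.07, adjusted p = 7.3e-08, edgeR's quasi-likelihood test), and Gabpa and Gabpb1 were not called.

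SLAM-seq in the GABPA line followed newly made RNA over time. Converted reads allowed a test of 9 members, since Fbl had 2 to 24 converted reads in a library and did not pass the filter on low counts. Snu13 was the member called at 1 h, Shq1 and Snu13 were called at 2 h and 4 h, and 6 members were called at 12 h, all of them lower. Levels below are CPM of converted reads, relative to all converted reads of the library, and are not scaled by gene length, so they compare libraries and not genes.

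Snu13 was already lower at 1 h, when 1.72% of the 15887 genes tested had fallen. Of the SLAM-seq reads of Snu13, 60.8% to 69.4% in a library mapped to more than 1 place. The part of such reads in the changes of Snu13 was not tested. Its converted reads stood at 138 and 131 CPM with 1 h of dTAG-13, against 298 and 275 CPM in DMSO, with the groups well apart. The log2 change was -1.09 ± 0.19 (adjusted p = 0.0018), and without dTAG-13 replicate 1 the adjusted p was 0.054. At 2 h Snu13 was at 226 and 160 CPM and at 4 h at 204 and 168 CPM, against 424 and 308 CPM in the shared DMSO group. The changes were -0.92 ± 0.18 at 2 h (adjusted p = 0.0024) and -0.98 ± 0.18 at 4 h (adjusted p = 0.0012). The 2 h call was lost in a fit of these libraries alone, without DMSO replicate 1 and without dTAG-13 replicate 2 (adjusted p of 0.075 or more). At 12 h Snu13 stood at 111 and 123 CPM with dTAG-13, against 488 and 494 CPM in DMSO, a change of -2.08 ± 0.18 (adjusted p = 4.8e-09).

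Shq1 followed another course. At 1 h its converted reads were at 51.9 and 75.7 CPM after dTAG-13 and at 51.7 and 76.7 CPM in DMSO, so the groups coincided, and the log2 change was -0.03 ± 0.26 (adjusted p = 0.99). At 2 h it stood at 22.7 and 25.7 CPM and at 4 h at 5.92 and 12.4 CPM, against 46.8 and 53.0 CPM in the shared DMSO group, with no overlap at either time. These were changes of -1.05 ± 0.27 at 2 h (adjusted p = 0.026) and -2.37 ± 0.33 at 4 h (adjusted p = 4.7e-05). The 2 h call was lost with DESeq2, in a fit of these libraries alone and without DMSO replicate 2 or either dTAG-13 library (adjusted p of 0.051 or more). At 12 h Shq1 was at 2.89 and 3.97 CPM after dTAG-13, against 102 and 91.6 CPM in DMSO, a change of -4.87 ± 0.32 (adjusted p = 4.8e-11). Those levels rest on 12 and 7 converted reads after dTAG-13, against 221 and 203 in DMSO. At 2 h 3.21% of all genes had fallen and at 4 h 3.91%.

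**Figure D4:**
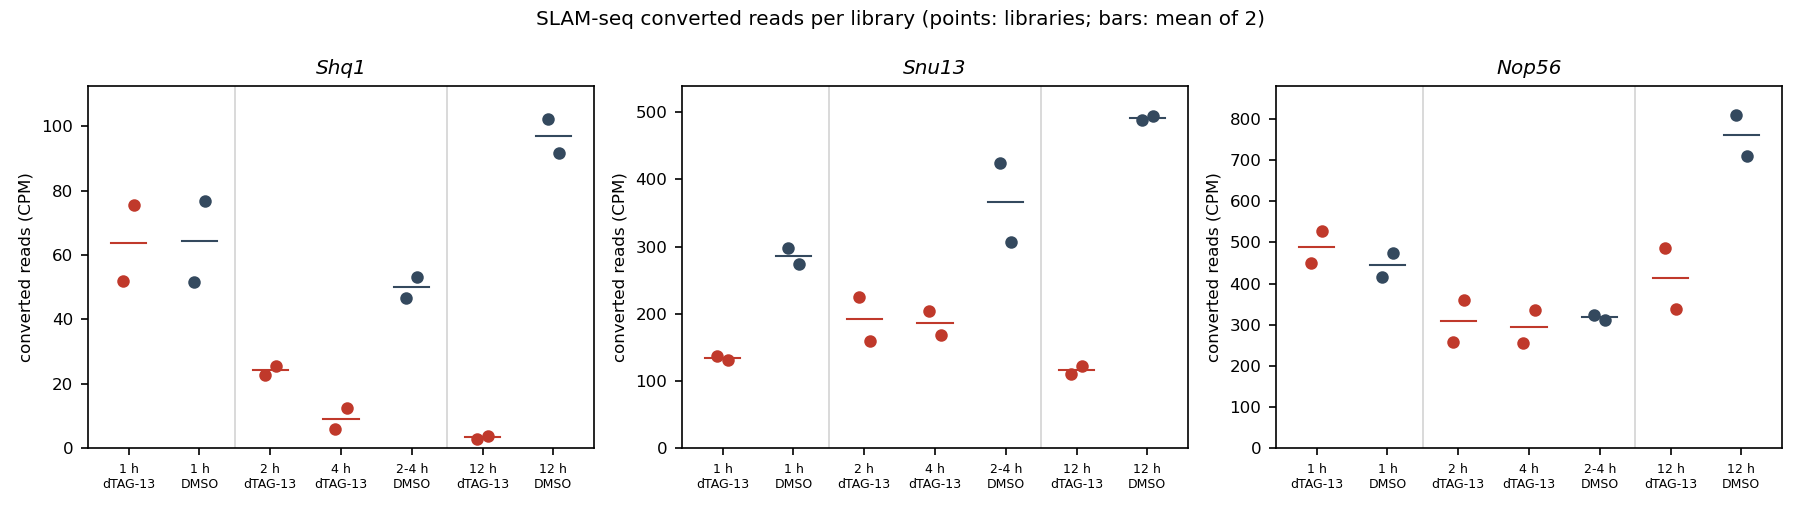
Converted reads in CPM (vertical axis, from 0, scaled per gene) of Shq1, Snu13 and Nop56 in every SLAM-seq library of the GABPA line, by time, with dTAG-13 libraries left of their DMSO libraries and bars at group means. Snu13 libraries are separated from 1 h on, while Shq1 libraries coincide at 1 h and reach 2.89 and 3.97 CPM after 12 h of dTAG-13, against 102 and 91.6 CPM in DMSO.

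At 12 h 18.3% of all genes had fallen and 12.3% had risen in converted reads, and the median log2 change was -0.56 over the 9 members and 0.04 over all genes. Nop56 stood at 487 and 339 CPM with 12 h of dTAG-13, against 810 and 710 CPM in DMSO (-0.87 ± 0.18, adjusted p = 0.00076). Nop58 was at 598 and 501 CPM after dTAG-13, against 858 and 874 CPM in DMSO (-0.66 ± 0.14, adjusted p = 0.0013). Both scaffold genes of the C/D particle were thus lower, with no overlap between groups. Nhp2 was at 334 and 327 CPM after dTAG-13, against 500.4 and 475 CPM in DMSO (-0.56 ± 0.15, adjusted p = 0.0056), and lost its call without DMSO replicate 1 or either dTAG-13 library (adjusted p of 0.051 to 0.087). Nop10 was at 332 and 422 CPM after dTAG-13, against 533 and 544 CPM in DMSO (-0.52 ± 0.17, adjusted p = 0.026). It lost its call with total counts, without either DMSO library and without dTAG-13 replicate 1, where the change was -0.29 (adjusted p of 0.094 to 0.34 over these settings). With library sizes taken from all reads, Nhp2, Nop10 and Nop58 stood at -0.91, -0.88 and -1.001, and the median of all genes moved by -0.34 under that scaling.

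The remaining members were not called in converted reads at 12 h. Dkc1 was at 333 and 306 CPM after dTAG-13 and at 326 and 371 CPM in DMSO (-0.12 ± 0.15, adjusted p = 0.56). Naf1 was at 74.9 and 118 CPM after dTAG-13 and at 72.1 and 91.6 CPM in DMSO (0.21 ± 0.21, adjusted p = 0.47), so both its groups and those of Dkc1 overlapped. Gar1, with 13.48 and 13.04 CPM after dTAG-13 and 16.6 and 19.4 CPM in DMSO, changed by -0.44 ± 0.33 (adjusted p = 0.33), which rests on 23 to 56 converted reads per library. At 1, 2 and 4 h the members other than Shq1 and Snu13 were not called, with log2 changes between -0.82 (Gar1 at 4 h, ± 0.35, adjusted p = 0.26) and 0.24 (Dkc1 at 2 h). With library sizes from all reads, Nhp2 and Nop58 were also called at 4 h.

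**Figure D5:**
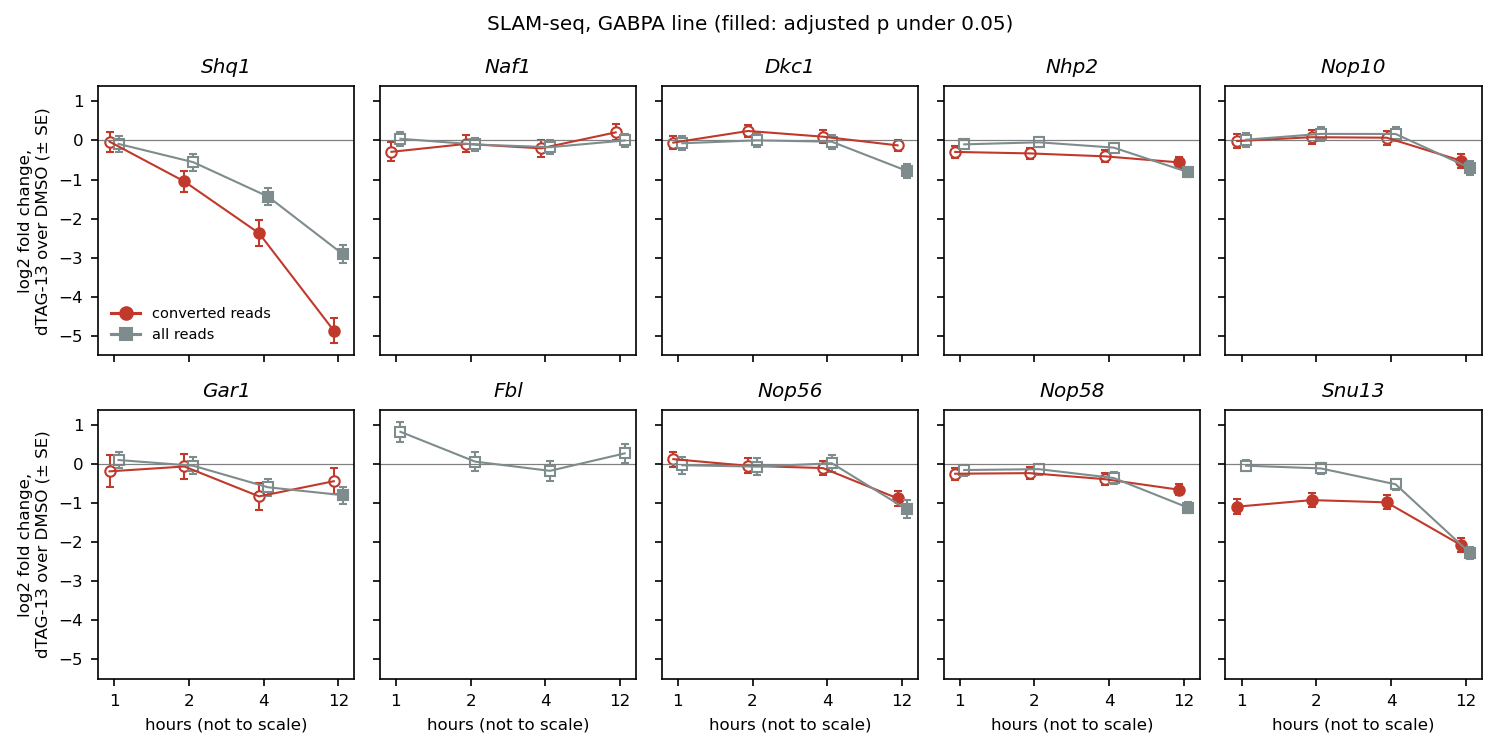
Log2 change (dTAG-13 over DMSO, with standard error bars) of converted reads (circles) and of all reads (squares) at 1, 2, 4 and 12 h of dTAG-13 (spacing not to scale) in SLAM-seq of the GABPA line, with filled symbols for an adjusted p under 0.05 and Fbl shown for all reads alone. In converted reads Shq1 runs through -0.03, -1.05, -2.37 and -4.87 and Snu13 through -1.09, -0.92, -0.98 and -2.08 at 1, 2, 4 and 12 h, where 2 h and 4 h share a DMSO group.

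Differences between times were tested within the same model, although the converted share of the libraries differed between times. From 1 h to 12 h, where 4.7% of all genes had a negative called difference, the response changed by -4.84 ± 0.42 for Shq1 (adjusted p = 2.8e-07), -1.004 ± 0.26 for Nop56 (adjusted p = 0.02) and -0.99 ± 0.26 for Snu13 (adjusted p = 0.021). The Nop56 call was lost without any of 4 libraries (adjusted p of 0.086 to 0.12) and the Snu13 call without 7 of the 8 (adjusted p of 0.055 to 0.091). From 4 h to 12 h, with 3.01% of all genes, the changes were -2.50 ± 0.53 for Shq1 (adjusted p = 0.0068) and -1.10 ± 0.25 for Snu13 (adjusted p = 0.013). Shq1 lost this call without dTAG-13 replicate 1 of 12 h or dTAG-13 replicate 2 of 4 h (adjusted p of 0.074 and 0.28) and Snu13 without 5 libraries (adjusted p of 0.060 to 0.084). From 1 h to 2 h the Shq1 response moved by -1.02 ± 0.37 and the Snu13 response by 0.17 ± 0.26. edgeR's quasi-likelihood test called 0 members there and 0% of all genes, with Shq1 alone at an unadjusted p under 0.05, and DESeq2 called 0. The 4 h and 2 h dTAG-13 libraries, compared directly, differed by -1.33 ± 0.37 for Shq1. In that comparison too edgeR called 0 members and 0% of all genes, Shq1 and Gar1 had an unadjusted p under 0.05, and DESeq2 called 0.

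All SLAM-seq reads, converted or not, measured the standing RNA of the same libraries. At 1 h Snu13 had 253 and 283 CPM after dTAG-13 and 296 and 255 CPM in DMSO, overlapping groups with a log2 change of -0.04 ± 0.14, while its converted reads were already lower. With edgeR 0 members were called at 1 h, beside 0.00371% of all genes that fell and 0% that rose, and Fbl alone had an unadjusted p under 0.05. At 2 h 0 members were called, beside 0.211% of all genes that fell and 0.00371% that rose, and Shq1 (-0.56 ± 0.21) alone had an unadjusted p under 0.05. DESeq2 was not run on all reads. At 4 h, when 2.1% of all genes had fallen, Shq1 had 11.92 and 11.04 CPM after dTAG-13, against 26.7 and 35.4 CPM in DMSO (-1.44 ± 0.22, adjusted p = 0.0017), and Snu13 had 207 and 190 CPM, against 307 and 260 CPM (-0.51 ± 0.14, adjusted p = 0.10). At 12 h Snu13 stood at 88.7 and 79.8 CPM after dTAG-13, against 420.0 and 399.7 CPM in DMSO (-2.28 ± 0.15, adjusted p = 1.4e-08), and Shq1 at 6.63 and 11.9 CPM, against 74.5 and 61.5 CPM (-2.91 ± 0.23, adjusted p = 8.3e-08).

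In all reads at 12 h, 8 members fell and none rose, beside 27.6% of all genes that fell and 29.8% that rose. Nop56 (-1.15 ± 0.22), Nop58 (-1.12 ± 0.14), Nhp2 (-0.81 ± 0.13), Gar1 (-0.79 ± 0.22), Dkc1 (-0.77 ± 0.18) and Nop10 (-0.71 ± 0.18) joined Shq1 and Snu13, while Naf1 (0.00 ± 0.18) and Fbl (0.28 ± 0.24) were not called. These counts moved with the scaling. The TMM factors, which scale library sizes, were 1.12 and 1.13 in the dTAG-13 libraries, against 0.860 and 0.881 in the DMSO libraries, and with total counts instead the median of all genes moved by 0.37. Relative to total counts 5 members fell, Shq1 (-2.54), Snu13 (-1.91), Nop56 (-0.78), Nop58 (-0.75) and Nhp2 (-0.45), and Fbl rose (0.64, adjusted p = 0.028). Dkc1, Gar1 and Nop10 stood at -0.41, -0.43 and -0.34 under that scaling and were not called.

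Marker genes moved in the same 12 h libraries. The 10 stem cell markers summed to 6162 to 6185 CPM of all reads after dTAG-13, against 8629 to 9032 CPM in DMSO. Of these markers 5 fell (Nanog, Zfp42, Dppa5a, Tdgf1 and Utf1) and Sox2 rose, with a median log2 change of -0.49. Across all genes 27.6% fell and 29.8% rose in these reads, and total counts moved the median of all genes by 0.37. The 8 fibroblast markers summed to 8.18 to 12.97 CPM after dTAG-13, against 3.46 to 3.80 CPM in DMSO, and 3 of the 7 tested rose (Col1a2, Dcn and Pdgfrb; median 1.35). The 10 markers of differentiated lineages summed to 9.24 to 10.1 CPM after dTAG-13, against 9.13 to 9.43 CPM in DMSO, and of 9 tested, Gata6 and Cdx2 rose and T fell. In all SLAM-seq reads, Foxa2 alone among the markers was at 0 in both libraries of a 12 h group, the DMSO group. In converted reads at 12 h, 4 of 10 stem cell markers fell and 2 rose (median -0.24), beside 18.3% of all genes that fell and 12.3% that rose. No fibroblast marker had enough converted reads for a test. In RNA-seq of the GABPA line the stem cell markers summed to 8112 to 8462 CPM after dTAG-13, against 7847 to 7923 CPM in DMSO, and the fibroblast markers to 7.25 to 10.03 CPM, against 7.26 to 7.61 CPM. Nanog (-0.34) and Utf1 (-0.34) fell there and Sox2, Tfcp2l1 and Dppa5a rose, beside 21.9% of all genes that fell and 24.6% that rose. Of 5 fibroblast markers tested, Col1a1 rose. The lineage markers summed to 16.0 to 20.4 CPM after dTAG-13, against 22.2 to 25.7 CPM in DMSO. Of 8 tested, T and Sox7 fell and none rose. The part of these shifts in the members' changes was not tested.

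The assays therefore gave Shq1, Snu13, Nop56 and Nop10 as lower at 12 h in RNA-seq and in converted SLAM-seq reads, and differed for others. Nop10 lost its call under some settings in each assay, as given above, and most SLAM-seq reads of Snu13 mapped to more than 1 place. Naf1 fell in RNA-seq (-0.54 ± 0.07) and stood at 0.21 ± 0.21 in converted reads and 0.00 ± 0.18 in all SLAM-seq reads. Nop58 stood at -0.02 ± 0.07 in RNA-seq and fell in converted and in all SLAM-seq reads. Gar1 fell in RNA-seq (-0.91 ± 0.09) and in all SLAM-seq reads (-0.79 ± 0.22), where total counts did not give the call (-0.43). Its change in converted reads (-0.44 ± 0.33) was not called. Nhp2 was not called in RNA-seq (-0.14 ± 0.07) and fell in converted reads (-0.56 ± 0.15) and in all SLAM-seq reads (-0.81 ± 0.13). Dkc1 stood at 0.05 ± 0.07 in RNA-seq and at -0.12 ± 0.15 in converted reads, and fell in all SLAM-seq reads (-0.77 ± 0.18), a call that total counts did not give (-0.41). The 2 assays used different library preparations and read different stretches of the transcripts, SLAM-seq the 3′ ends. The difference between assays was not tested.

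The share of a gene's SLAM-seq reads that were converted gives a view that does not use library sizes. For Snu13 it was 2.66 ± 0.42% after 1 h of dTAG-13 and 6.04 ± 0.59% in DMSO (mean ± SD, n = 2), while the shares over all genes were 5.26% with dTAG-13 and 5.76% in DMSO. At 2 h and 4 h it was 6.93 ± 0.69% and 8.25 ± 0.04%, against 13.80 ± 0.78% in the shared DMSO group. At 12 h the Snu13 shares were close together, at 15.8 ± 0.81% after dTAG-13 and 17.5 ± 0.58% in DMSO. Shq1 differed in its course: 6.51 ± 1.17% after dTAG-13 and 6.88 ± 2.20% in DMSO at 1 h, 10.9 ± 0.03% at 2 h and 7.30 ± 4.43% at 4 h against 17.5 ± 1.06% in DMSO, and 4.42 ± 1.23% after dTAG-13 against 20.8 ± 0.99% in DMSO at 12 h. Among the members tested, Naf1 had the highest share at 12 h (28.9 ± 0.50% after dTAG-13 and 32.2 ± 1.17% in DMSO). That was 2.06 and 2.43 times the share of its library after dTAG-13, against 2.33 and 2.24 times in DMSO. The shares over all genes were 9.06% and 9.87% at 2 h and 8.58% and 9.34% at 4 h, against 10.42% and 11.35% in the shared DMSO group. At 12 h they were 13.84% and 12.05% after dTAG-13, against 14.12% and 13.99% in DMSO. These shares were not tested, and most SLAM-seq reads of Snu13 mapped to more than 1 place.

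Other genes of the pathway were read from lists set beside the members, with background shares as above. Of 7 tested genes of the snoRNP assembly machinery, 3 fell and none rose in RNA-seq of the GABPA line (median -0.11, beside 0.06 over all genes). They were the ATPase gene Ruvbl1 (-0.43 ± 0.06, adjusted p = 7.6e-06) and the cofactor genes Pih1d1 (-0.36 ± 0.09, adjusted p = 0.0032) and Znhit3 (-0.24 ± 0.08, adjusted p = 0.031), while Znhit6 stood at -0.11 (adjusted p = 0.27). Pih1d1 lost its call without DMSO replicate 2 (adjusted p = 0.061), and Znhit3 with DESeq2 and 5 other settings (adjusted p of 0.055 to 0.17). Of 7 nucleolar, Cajal body and RNA transport partners, 4 fell and 1 rose (median -0.33). Tgs1, whose product modifies RNA caps, stood at 20.9 and 22.1 CPM after dTAG-13, against 51.5 and 46.5 CPM in DMSO (-1.19 ± 0.11, adjusted p = 1.6e-07). Phax, an export adaptor (-0.72 ± 0.09), and the nucleolar phosphoprotein genes Nolc1 (-0.35 ± 0.05) and Tcof1 (-0.33 ± 0.05) fell too. The gene that rose was Wrap53, which encodes a Cajal body protein (0.43 ± 0.09, adjusted p = 0.00072) and was named after its value was seen.

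Of 8 genes of snoRNA and telomerase RNA end processing, 1 fell and 1 rose in RNA-seq of the GABPA line (median 0.03): the exonuclease gene Toe1 fell (-0.88 ± 0.08, adjusted p = 1.3e-07) and the deadenylase gene Parn rose (0.36 ± 0.07, adjusted p = 0.0006). Pabpn1 and Zcchc8 stood at 0.14 and 0.12 and were not called. Of 6 genes whose proteins were listed with the U3 snoRNP, a particle that cleavage of the ribosomal RNA precursor needs, 4 fell and none rose (median -0.29). Imp3 stood at 26.1 and 23.1 CPM after dTAG-13, against 52.2 and 57.0 CPM in DMSO (-1.15 ± 0.09, adjusted p = 1e-08), and Mphosph10 (-0.58 ± 0.08), Imp4 (-0.32 ± 0.06) and Utp15 (-0.25 ± 0.08, adjusted p = 0.021) followed. Utp15 lost its call without DMSO replicate 1 or dTAG-13 replicate 1 (adjusted p of 0.21 and 0.27). Of 5 tested telomerase genes, Tert and Ruvbl1 fell and Smg6 (0.29 ± 0.07, adjusted p = 0.0016) and Tep1 (0.28 ± 0.11, adjusted p = 0.04) rose, with Tep1 losing its call under 6 settings (adjusted p of 0.059 to 0.37). Tert, the catalytic subunit, stood at 10.2 and 8.55 CPM after dTAG-13, against 19.7 and 19.8 CPM in DMSO of the GABPA line (-1.08 ± 0.11, adjusted p = 2.7e-07).

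In the other lines Toe1, Imp3 and Tert were called as well. Tert fell by 0.91 ± 0.09 on the log2 scale in the GABPB1 line (adjusted p = 6.9e-06), and in the GABPB1/GABPB2 line it stood at 7.76 and 8.02 CPM after dTAG-13, against 26.9 and 25.6 CPM in DMSO (-1.74 ± 0.10, adjusted p = 4.1e-09). Imp3 changed by -0.37 ± 0.08 in the GABPB1 line (adjusted p = 0.0085, lost without 3 of the 4 libraries, 0.11 to 0.26) and -0.48 ± 0.09 in the GABPB1/GABPB2 line (adjusted p = 0.00097). Toe1 changed by -0.46 ± 0.08 and -0.38 ± 0.08 in these lines, and each call was lost without 1 library (DMSO replicate 2 in the GABPB1 line, adjusted p = 0.070, and dTAG-13 replicate 2 in the GABPB1/GABPB2 line, adjusted p = 0.056). In the GABPB1/GABPB2 line Pih1d1 (-0.29) and Phax (-0.30) were called too, and both lost the call with DESeq2 and under 3 other settings. In converted reads at 1 h Phax (-0.89 ± 0.19, adjusted p = 0.011) and Imp3 (-1.05 ± 0.25, adjusted p = 0.022) were called. Phax lost that call without any 1 of its 4 libraries (adjusted p of 0.054 to 0.19) and Imp3 without 3 of them (0.10 to 0.49). At 2 h the same genes were the pathway genes called, Phax at -0.64 ± 0.18 (adjusted p = 0.038, lost under 5 settings, 0.058 to 0.43) and Imp3 at -0.76 ± 0.21 (adjusted p = 0.043, lost under 7 settings, 0.055 to 0.33). At 4 h Tgs1 was the pathway gene called (-0.90 ± 0.21, adjusted p = 0.0086), and it lost the call without DMSO replicate 2 or dTAG-13 replicate 1 (adjusted p of 0.091 and 0.19), while Imp3 stood at -0.70 (adjusted p = 0.071) and Phax at -0.51 (adjusted p = 0.14).

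At 12 h in converted reads, 5 of 7 assembly genes fell, led by Ruvbl1 (-1.45 ± 0.22) and, outside the naming rule, Ruvbl2 (-1.14 ± 0.18). Of the nucleolar and transport partners 5 of 7 fell, led by Tgs1 (-1.79 ± 0.19) and Phax (-1.48 ± 0.17). Of the genes listed with the U3 snoRNP 5 of 6 fell, led by Mphosph10 (-1.45 ± 0.16) and Imp4 (-1.12 ± 0.18). Of the end-processing genes 2 of 8 fell and Parn rose (0.61 ± 0.18, adjusted p = 0.015, lost under 4 settings, 0.060 to 0.42). These counts stand beside 18.3% of all genes that fell and 12.3% that rose at that time. Wrap53, higher in RNA-seq, was lower in converted reads at the threshold (-0.56 ± 0.21, adjusted p = 0.050) and lost that call under 9 settings.

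The genes whose changes were most like those of Shq1 and Snu13 were found over the 7 comparisons with DMSO, among 8903 genes, by the root-mean-square difference of log2 changes. For Shq1 they were Ercc3 (0.347), Sssca1 (0.352), Wdr24 (0.568) and Rnf25 (0.624), each on the log2 scale. For Snu13 they were Srp14 (0.107), Snrpb (0.143), Polr2h (0.144) and Rwdd4a (0.157). The comparisons at 2 h and 4 h share their DMSO libraries.

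Some members carry uncertainty from mapping. Of the SLAM-seq reads of Snu13, 60.8% to 69.4% mapped to more than 1 place, against 3.92% to 9.06% over all gene intervals in the same libraries, while the RNA-seq counts of Snu13 had a posterior SD of at most 0.0524% of the count. Fbl had 38 to 196 SLAM-seq reads per library, against 4383 to 10179 RNA-seq counts. Nop56 hosts the snoRNA genes Snord57 and Snord110 within its interval, and Nop58 hosts Snord70 and Snord11, so reads of their introns and of the snoRNAs share the interval. Predicted genes on the same strand overlap Nop56 (Gm24451, Gm23650 and Gm23187), Nop58 (Gm26293 and Gm26287), Dkc1 (Gm25520) and Shq1 (Gm44108 and Gm44116). Their mean RNA-seq counts were at most 7.67, and what they encode was not examined. Shq1 overlaps Gm6565 on the other strand by 438 bases, and Dkc1, Nhp2 and Nop56 overlap Mpp1, Rmnd5b and Idh3b by 45, 44 and 5 bases. The sources used here do not give whether strand was used in counting.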

How the data were processed

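Of 92 samples, 12 RNA-seq and 14 SLAM-seq libraries were used, and 66 samples of other assays were not analysed here. The authors deposited RNA-seq tables with expected counts, their posterior SD and TPM per gene, in the format of RSEM. Per the submitters' processing notes, the tools named for these samples included Trim Galore 0.6.7, STAR 2.7.11a and RSEM 1.3.1. For SLAM-seq the authors deposited a count of all reads, of converted reads and of multimapped reads for each gene interval. Per the file headers, slamdunk 0.4.3 wrote them from GENCODE gene intervals, and the build was mm39 per the labels. Strand handling was not stated in the sources used.

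Expected counts were rounded to whole numbers. Each assay was fitted once over all its groups with edgeR 4.0.16 (R 4.3.3), TMM normalization and filterByExpr (minimum count of 10, total of 15), which kept 16396 genes for RNA-seq, 15887 for converted reads and 26957 for all SLAM-seq reads. The test was edgeR's quasi-likelihood F test with p adjusted over all genes after Benjamini and Hochberg and a threshold of 0.05, checked on simulated data. Standard errors are |log2 fold change| over the root of F. TPM and CPM served for levels only, and p-values rest on the spread between the duplicates. The common biological coefficient of variation was 0.0608 for RNA-seq, 0.143 for converted reads and 0.159 for all reads.

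The 10 members, the pathway lists and the markers were chosen with earlier results of these data known. Named genes were the members, the GABP subunits, and of each pathway list at most the 4 genes with the smallest p in RNA-seq of the GABPA line, plus, for the 2 members that fell most, the 4 genes with the most similar changes (average log2 CPM of 3 or more, without predicted genes). Alternatives were DESeq2 1.42.0, DESeq2 size factors, total counts, other filters on low counts, the libraries of a comparison alone, a replicate block, leaving out each library, and for SLAM-seq all reads or their library sizes. Total counts for all SLAM-seq reads were added after the data were seen. Promoter sequences came from a RefSeq table on GRCm38.p6. Its coordinates were not mixed with the mm39 positions of the deposited tables.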

Additional observations from a re-analysis of the deposited data

Results flagged for a closer look

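The 12 h response of several members differed between lines. In RNA-seq the difference in log2 change of the GABPA line from the GABPB1/GABPB2 line was -3.44 for Shq1, -0.86 for Snu13, -0.76 for Gar1, -0.36 for Naf1 and -0.33 for Nop10, all lower in the GABPA line by edgeR's quasi-likelihood test of the difference. From the GABPB1 line it was -3.98 for Shq1, -1.23 for Snu13, -0.76 for Gar1 and -0.43 for Naf1. In DMSO the GABPA line held more transcript of each of these 5 genes than the GABPB1 line, by 1.16 (Shq1), 0.61 (Snu13), 0.88 (Gar1), 1.07 (Naf1) and 0.96 (Nop10) on the log2 scale, and the part of these starting levels in the differences was not tested.

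The response also differed between times in converted SLAM-seq reads of the GABPA line. From 1 h to 12 h it moved by -4.84 for Shq1, -1.004 for Nop56 and -0.99 for Snu13, and from 4 h to 12 h by -2.50 for Shq1 and -1.10 for Snu13. Each time has DMSO libraries of its own except 2 h and 4 h, which share a group, so time of dTAG-13 and the set of libraries cannot be told apart.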

How the results depend on the processing

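Of 598 values that the alternatives gave for the 55 called results of members, 533 kept the direction and the call, 65 kept the direction and lost the call (49 of them when 1 library was left out) and 0 reversed. Counts of members that moved follow, first 3 with shifts of at most 1.5 times and then those that moved by over 1.5 times. In GABPA-line RNA-seq 5 to 6 fell without 1 library and 7 in a fit of that line alone. In converted reads at 12 h, 4 to 5 fell without 1 library, 5 with total counts, 7 with library sizes from all reads and 8 when all reads were counted. In DMSO 9 to 10 were higher in the GABPA than in the GABPB1 line without 1 library, and 9 with total counts or the stricter filter. In the GABPB1 line the 2 members that fell became 1 with DESeq2 size factors, 1 with total counts and 0 to 1 without 1 library. In the GABPB1/GABPB2 line the 2 that fell became 2 to 5 and the 1 that rose 0 to 1 without 1 library, and 0 rose in a fit of that line alone. For the GABPA minus GABPB1/GABPB2 difference, 3 to 7 fell and 0 to 1 rose without 1 library. For the GABPB1/GABPB2 minus GABPB1 difference the 0 that fell became 1 with DESeq2, 1 with total counts, 1 with average log2 CPM of 3 or more, 2 without a filter and 0 to 1 without 1 library. In DMSO of the same lines 0 to 3 were lower without 1 library, and 2 were higher with total counts or with average log2 CPM of 3 or more. In converted reads, the number that fell was 0 to 1 at 1 h and 0 to 1 at 2 h without 1 library, 1 at 2 h with DESeq2, 0 at 2 h with its libraries alone, 4 at 4 h with library sizes from all reads, and 0, 0 and 1 at 1, 2 and 4 h when all reads were counted. For the differences of 12 h from 1 h and from 4 h it was 1 to 2 without 1 library (without dTAG-13 replicate 1 of 12 h, the 1 from 4 h was Nop56, called in that setting alone at -0.995, adjusted p = 0.046). In all reads at 12 h, total counts gave 5 that fell and 1 that rose. The cause of these shifts was not tested. Library sizes from all reads moved the median log2 change of all genes in converted reads by -0.13, -0.18, -0.29 and -0.34 at 1, 2, 4 and 12 h.

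A replicate block changed no call of a member, with 6 members that fell in GABPA-line RNA-seq and 6 in converted reads at 12 h. Deviations of same-numbered libraries correlated at -0.03 to 0.05 in RNA-seq and -0.00 to 0.29 in SLAM-seq, so the libraries share a number and no pairing is stated. Of 49 called results of pathway genes, 21 lost the call under at least 1 alternative and 0 values reversed. Depth limits Shq1 after 4 h and 12 h of dTAG-13 (6 to 17 converted reads), Gar1 (10 to 62) and Fbl (2 to 24).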
